A study of Homo sapiens with 2 samples.

Results

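HNRNPC peaks in the 3 pocket protein genes RB1, RBL1 and RBL2 numbered 48 of the 23148 peaks of the deposited list. A peak was taken as a member when its summit lay within the RefSeq span of one of these genes on human genome build 38, and all 3 gene symbols were found in the RefSeq table. The peaks came from RNA immunoprecipitation sequencing (RIP-seq) of A549, an established line of human non-small cell lung cancer cells, cultured with no treatment named in the labels. The series has 2 samples, an HNRNPC IP library made with 5 µg of antibody and an input library, 1 of each, both from total RNA of the same line. The peak list belongs to the IP library, and no file of the input library was analysed here. As each group is a single library, no replicate stands behind a value and no test between samples was made. The values below describe this library, and all intervals cover counting error only.

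Pocket proteins are named for the pocket domain through which they hold E2F transcription factors. The retinoblastoma protein RB1 binds the activating E2F factors, and its loss is known from retinoblastoma and small cell lung cancer. RBL1 (p107) and RBL2 (p130) bind the repressive factors E2F4 and E2F5 and join the MuvB core in the DREAM complex, RBL2 mostly in resting cells and RBL1 mostly in cycling cells. Cyclin-dependent kinases phosphorylate all 3 proteins and thereby release E2F factors for entry into S phase. HNRNPC is a nuclear protein that binds runs of U in nascent RNA and is known for its part in splicing and as a reader of m6A-dependent RNA structure.

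The 3 genes differed in length more than in number of peaks. RB1 (NCBI gene 5925, chromosome 13, 48303751 to 48481890, plus strand) held 18 peaks over 178140 bp. RBL1 (NCBI gene 5933, chromosome 20, 36996349 to 37095997, minus strand) held 13 over 99649 bp, and RBL2 (NCBI gene 5934, chromosome 16, 53434471 to 53491648, plus strand) held 17 over 57178 bp. A peak was carried by 18.4% of all 20037 protein-coding genes, and 2.52% had 13 or more. These shares take no account of expression, which was not measured in this list, so fewer RNA molecules and less binding per molecule cannot be told apart. A transcript that lies within another gene cannot be separated either, because no peak carries a strand.

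Relative to its span RBL2 was the most densely covered. It had 29.7 peaks per 100 kb (95% exact Poisson interval 17.3 to 47.6), whereas RBL1 had 13.0 (6.95 to 22.3) and RB1 10.1 (5.99 to 15.97). The intervals of RBL2 and RB1 did not overlap, and that of RBL1 overlapped both. Neighbouring peaks of one RNA are not independent, which the intervals ignore. Peaks covered 5.85% of the span in RBL2, 1.81% in RBL1 and 1.13% in RB1.

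Longer genes tend to carry more peaks, so each gene was also set beside the protein-coding genes of its own span class, with 10 classes of about equal size. In the class of RBL2 (52.3 to 83.5 kb) 38 of 2003 genes (1.90%), RBL2 included, had as many peaks. In the class of RBL1 (83.5 to 152.2 kb) the figure was 183 of 2004 (9.13%), and in the class of RB1 (152.3 to 2474 kb) it was 104 of 2004 (5.19%). Density was 29.7 per 100 kb for RBL2, against 9.21 over the genes of its class with a peak. It was 13.0 for RBL1, against 7.21, and 10.1 for RB1, against 3.17. Each of the 3 genes thus lay above the pooled density of the genes with a peak in its class, although the class of RB1 reaches to far longer genes. Of the 782 protein-coding genes with 10 or more peaks, 69.4% were at least as dense as RB1, 57.03% as RBL1 and 14.7% as RBL2. RB1 and RBL1 thus lay below the middle of these genes and RBL2 above it. By number of peaks over all protein-coding genes RB1 ranked 201, RBL2 240 and RBL1 425.

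**Figure D1:**
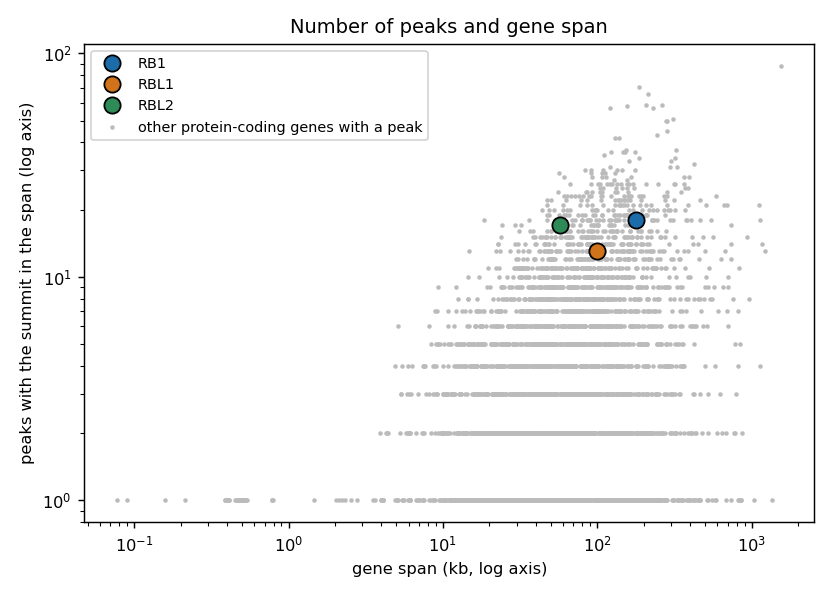
Number of peaks with the summit in the gene span (vertical, log axis) against gene span in kb (horizontal, log axis) for RB1, RBL1, RBL2 (coloured points) and the other protein-coding genes with a peak (grey points), 3685 genes in all. RBL2 reaches 17 peaks at a span of 57.2 kb, while RB1 has 18 at 178 kb.

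What stands behind a fold can be read from the list itself. MACS2, which the submitters' processing notes name without a role, computes fold as scaled IP reads plus 1 over the control level plus 1, and p from a Poisson distribution at that control level. Solving both equations gave whole IP reads at the summit for all 23148 peaks, within 0.001 of a read, at a scaling of 0.535 and a lowest control level of 0.103. The solution was unique for 23131 peaks, among them all 48 of the pocket protein genes. The IP reads and control levels below are these inferred values. Whether the control was the input library is not stated in the sources used here, and total depth remains unknown.

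RBL2 peaks had the highest medians of the family, in fold and in reads, measures that are linked because the reads enter the fold. The 17 RBL2 peaks had a median fold of 8.67 (3.72 to 15.5) and a median of 20 IP reads at the summit (11 to 30). The 13 RBL1 peaks had a median fold of 6.73 (4.52 to 10.1) and 13 reads (9 to 19), and the 18 RB1 peaks had 5.59 (3.82 to 8.19) and 12 reads (6 to 19). The ranges of all 3 genes overlapped in both measures. A fold of 10 or more was reached by 7 of the 17 RBL2 peaks, 1 RBL1 peak and no RB1 peak, against 8.89% of the 22293 peaks in protein-coding genes. At least 20 IP reads lay over the summits of 9 RBL2 peaks and of no RBL1 or RB1 peak, against 30.9% of peaks in protein-coding genes. RBL2 thus exceeded the share over all genes in both measures. RBL1 and RB1 lay below it in both, but at a share of 8.89% few such peaks would be found among 13 or 18.

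The standing of RBL2 depended on which of the measures was used. Among the 782 protein-coding genes with 10 or more peaks, 45 (5.75%) had a median fold at least as high as RBL2, while 241 (30.8%) had a median of IP reads at least as high. RBL1 was equalled by 28.5% of these genes in fold and 67.4% in reads, and RB1 by 73.5% and 75.8%. Over all peaks in protein-coding genes the median fold was 5.76 (quartiles 4.79 and 7.22) and the median number of reads 15 (quartiles 10 and 21). RBL1 had a median fold above that level on a median of reads below it. A control level of 1 read or more lay over the summit in 10 of the 48 pocket protein peaks (20.8%), against 31.1% of peaks in protein-coding genes, and the lowest control level in 72.9%, against 47.7%.

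**Figure D2:**
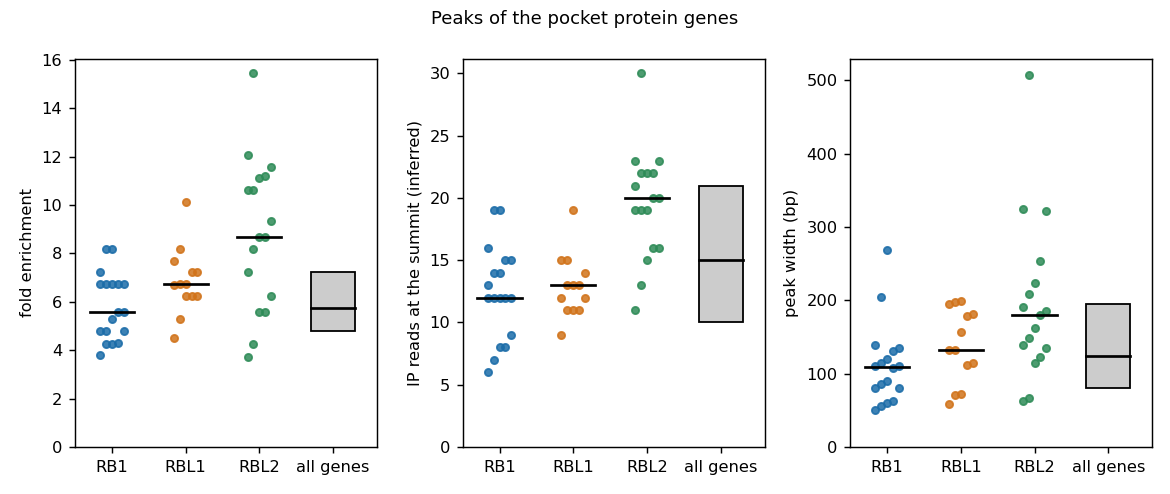
Fold enrichment, inferred IP reads at the summit and width in bp for every peak of RB1, RBL1 and RBL2 (points, with the median as a line), beside the quartiles and median of the 22293 peaks in protein-coding genes (grey box). The median of RBL2 is the highest of the 3 genes in each panel, at a fold of 8.67, 20 reads and 180 bp.

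In RB1, 2 groups of peaks lay apart with a long empty stretch between them. From the 5' start of the span, 12 summits fell between 0.099 and 77.6 kb, and 6 fell between 149.3 and 176.3 kb. The stretch of 71.7 kb without a summit takes up 40.3% of the span. It holds the whole of LPAR6, a lysophosphatidic acid receptor gene on the opposite strand, which lies 85.8 to 140.9 kb from the start of RB1 and has no peak of its own. A stretch of at least this share of the span was found in 164 of the 782 genes with 10 or more peaks (21.0%). Such a gap is therefore common among genes with many peaks.

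The first RB1 peak sat at the very start of the gene. It lay at chromosome 13, 48303769 to 48304036, had a width of 268 bp, the widest in RB1, and reached a fold of 7.22 with 13 IP reads (95% exact Poisson interval 6.92 to 22.2). Its summit was 99 bp from the start. The divergent lncRNA gene RB1-DT, which lies 48 bp beyond that start on the opposite strand, had no summit. The second peak followed 3.49 kb further on, with a fold of 5.59 and 19 reads over a control level of 1 read.

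The first group of RB1 ended in a run of closely spaced peaks. Beyond a stretch of 35.3 kb peaks 3, 4 and 5 from the start had folds of 4.79, 3.82 and 4.30 on 8, 6 and 7 reads. Among the other RB1 peaks 8 was the lowest number of reads. From 59.1 to 77.6 kb 7 summits followed each other at distances of 1.15 to 5.93 kb. Their folds were 6.73, 5.27, 4.79, 6.73, 6.73, 6.73 and 8.19. The last of them, at 48381271 to 48381405 with 15 reads (8.40 to 24.7), shared the highest fold of RB1. Of these 7 summits, 4 also lay within LOC112268118, an lncRNA gene inside the RB1 span, and could belong to either transcript.

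The second group of RB1 had more control reads. It opened with the other peak of fold 8.19, at 48453046 to 48453108, 63 bp wide and with 15 reads. The 5 peaks after it had folds of 4.25, 6.73, 4.25, 4.78 and 5.59 on 14, 12, 14, 16 and 19 reads. A control level of 1 read lay over 4 of the 6 summits, against 1 of the 12 in the first group. The median fold was 5.19 in the second group and 6.16 in the first, while the median number of IP reads was 14.5 and 12. The last peak, at 48480048 to 48480252, lay 1.84 kb from the 3' end of the span.

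**Figure D3:**
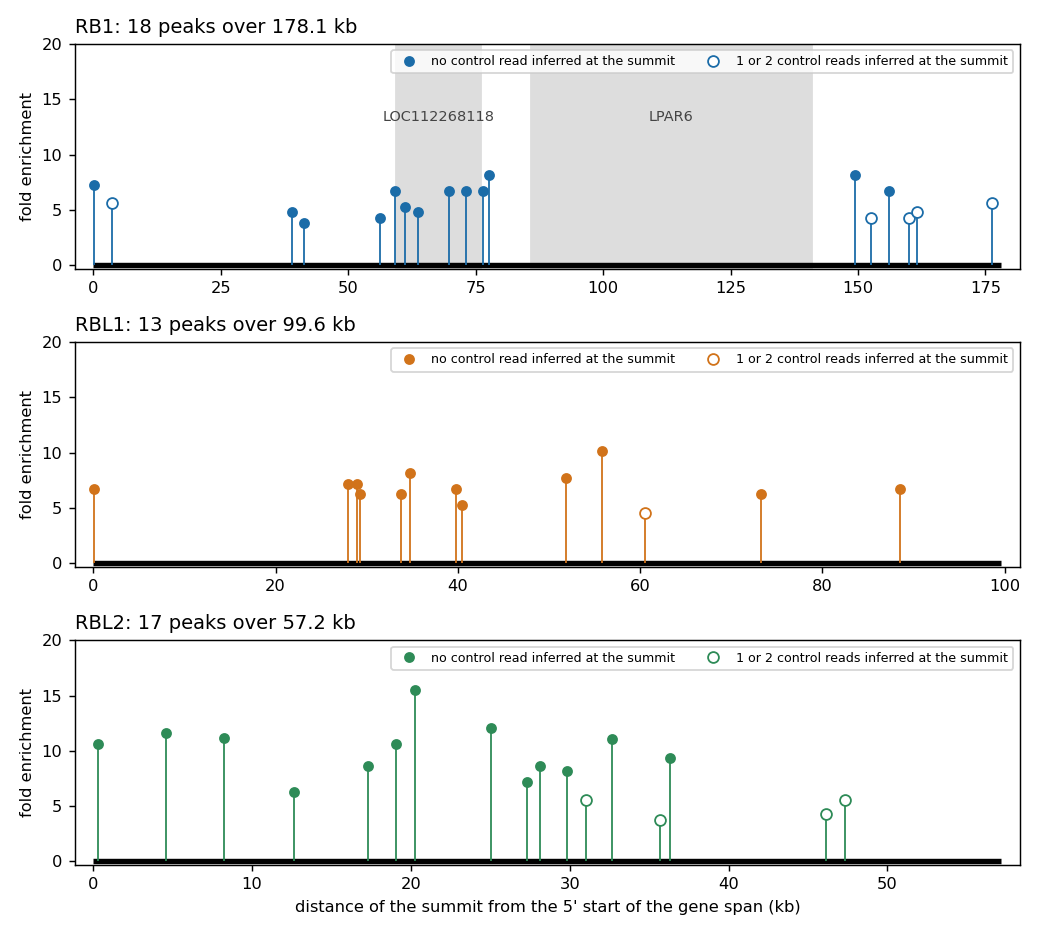
Fold enrichment of each peak (vertical) against the distance of its summit from the 5' start of the gene span in kb (horizontal, one panel per gene), with filled points where the control level was under 1 read and open points where it was 1 or 2 reads. Grey bands in the RB1 panel mark LOC112268118 and LPAR6, and the stretch of 71.7 kb without a summit spans LPAR6.

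RBL1, the gene of p107, also began with a peak at its start. That peak lay at chromosome 20, 37095776 to 37095974, with its summit 49 bp inside the gene, a fold of 6.73 and 12 reads (6.20 to 20.96). The next 27.9 kb (28.0% of the span) had no summit. A stretch of at least this share was found in 43.4% of genes with 10 or more peaks. MROH8, the neighbouring protein-coding gene beyond the start, had no peak.

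After that stretch RBL1 carried close pairs and triplets of peaks. Summits 28.0, 28.9 and 29.2 kb from the start had folds of 7.22, 7.22 and 6.24. A pair at 33.8 and 34.8 kb had folds of 6.24 and 8.19, and a pair at 39.8 and 40.4 kb had 6.73 and 5.27. Of the 12 distances between neighbouring summits 4 were under 1 kb, the shortest being 0.312 kb, against 2 of 16 in RBL2 and 0 of 17 in RB1. The median distance was nevertheless longest in RBL1, at 4.67 kb, with 3.47 kb in RB1 and 2.04 kb in RBL2. The share of distances under 1 kb in other genes was not computed, so these counts do not set RBL1 apart.

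The tallest RBL1 peak lay near the middle of the gene, at 37040196 to 37040267. Its 19 reads (11.4 to 29.7) gave a fold of 10.1, and it was 72 bp wide. The peak before it had a fold of 7.70, and the peak after it, at 37035295 to 37035489, had 4.52 on 15 reads over a control level of 1 read. That peak had the only such control level among the 13. Towards the 3' end of RBL1 summits became sparse, with distances of 12.7 and 15.2 kb, folds of 6.24 and 6.70, and none within the last 11.1 kb.

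In RBL2, the gene of p130, the longest stretch between summits was shorter than in RB1 or RBL1. The longest distance between neighbouring summits was 9.82 kb (17.2% of the span), and 15 of 16 distances were under 5 kb. A stretch of at least this share was found in 75.6% of genes with 10 or more peaks. The first peak, at chromosome 16, 53434473 to 53434794, had its summit 279 bp from the start, was 322 bp wide and reached a fold of 10.6 with 20 reads (12.2 to 30.9). The 2 peaks after it had folds of 11.6 and 11.2 on 22 reads each.

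The tallest peak of the family lay in RBL2 at 53454619 to 53454842, 20.2 kb from the start. It had 30 IP reads (20.2 to 42.8), a fold of 15.5 and rank 188 of all 23148 peaks by fold, so that 0.955% of peaks were at least as high. The intervals of its reads and of the tallest RB1 peaks by reads, 19 (11.4 to 29.7), overlapped. Around it lay peaks of fold 10.6 (53453457 to 53453780) and 12.1 (53459444 to 53459623). The widest peak of the family, 507 bp at 53470412 to 53470918, had 23 reads and a fold of 9.36. By its best fold RBL2 ranked 117 of the 3685 protein-coding genes with a peak, RBL1 704 and RB1 1271. The best of many peaks tends to be higher than the best of few, which these ranks ignore.

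Lower folds in RBL2 stood at summits with control reads. The peaks at 31.0, 35.7, 46.1 and 47.3 kb had folds of 5.59, 3.72, 4.26 and 5.59, the 4 lowest of the gene. They held 19, 19, 22 and 19 reads, near the gene's median of 20, over control levels of 1, 2, 2 and 1, which lower the fold by its formula. The other 13 RBL2 peaks had a median fold of 10.6 on the same median of 20 reads. No summit lay in the last 9.85 kb of RBL2, where its span overlaps that of AKTIP by 609 bp.

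At the 10 summits with control reads a low fold went with many reads, which the fold formula and the limit on q partly fix in advance. At the 38 others the fold rose nearly in step with the reads. The control level enters the divisor of the fold, and a summit with control reads needs more IP reads to be called. The fewest IP reads were 14 at summits with control reads and 6 at the others. The 10 peaks with control reads had a median fold of 4.65 on a median of 19 reads, and the 38 others had a median fold of 7.22 on 13 reads. In RB1 the 2 peaks with the most reads, 19 each, had a fold of 5.59, below the 8.19 of the peaks with 15 reads. The order of peaks by fold is therefore not their order by IP reads. Of the 10 peaks with control reads 9 lay beyond the midpoint of their gene, as did 9 of the 38 others. In genes with 10 or more peaks the shares were 75.6% of 3184 and 60.1% of 7592.

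**Figure D4:**
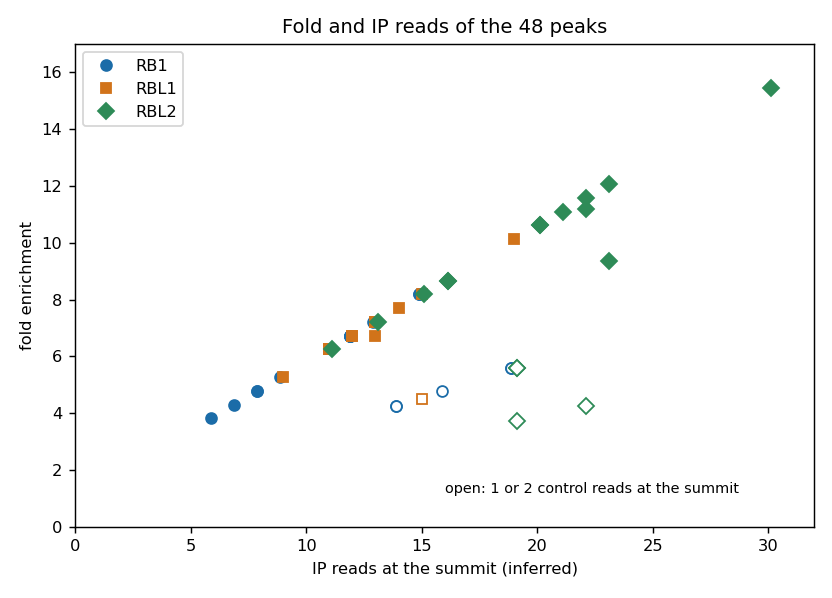
Fold enrichment (vertical) against inferred IP reads at the summit (horizontal) for the 48 peaks of RB1 (circles), RBL1 (squares) and RBL2 (diamonds), with open symbols where 1 or 2 control reads lay over the summit. Filled symbols run close to a line up to the RBL2 peak of 30 reads and a fold of 15.5, and the open symbols lie below it, at folds of 3.72 to 5.59.

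All 3 genes shared a peak at the 5' start. The summit lay within 300 bp of the start in each, at 99 bp in RB1, 49 bp in RBL1 and 279 bp in RBL2. The limit was chosen after the peaks had been seen. Among 665 genes with 10 or more peaks and a known strand, 51.9% had a summit within 300 bp, 62.6% within 500 bp and 70.1% within 1000 bp, so a peak at the start is common in such genes. The start peak had a fold above the gene's own median in RB1 (7.22, median 5.59) and RBL2 (10.6, median 8.67) and equal to it in RBL1 (6.73). Of 416 genes with a peak within 500 bp of the start, 65.1% had it above their own median.

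At the 3' end the counts of the genes differed, on few summits. A summit within 5 kb of the end was present in RB1 and absent from RBL1 and RBL2, and 45.7% of the 665 genes had one. Each span was cut into 3 parts of equal length in the direction of transcription. The parts of RB1 held 6, 6 and 6 summits, those of RBL1 4, 7 and 2, and those of RBL2 5, 10 and 2. The last part thus had 33.3% of summits in RB1 (95% exact binomial interval 13.3 to 59.0%). It had 15.4% in RBL1 (1.92 to 45.4%) and 11.8% in RBL2 (1.46 to 36.4%), against 45.9% over the peaks of the 665 genes. The intervals of the 3 genes overlapped. The first part had 33.3% in RB1, 30.8% in RBL1 and 29.4% in RBL2, against 21.0%. Exons and introns were not resolved, since the reference used here holds spans without transcript structure.

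The starts of RBL1 and RBL2 are printed because the start peak reaches into them. RefSeq (build GRCh38.p14) gives both 5' to 3' on the coding strand, which has the sense of the RNA. Each runs from 100 bases before the start to the first 30 bases of the gene, with the bases inside the peak in capitals. They lie at chr20:37095968-37096097 and chr16:53434371-53434500.
RBL1: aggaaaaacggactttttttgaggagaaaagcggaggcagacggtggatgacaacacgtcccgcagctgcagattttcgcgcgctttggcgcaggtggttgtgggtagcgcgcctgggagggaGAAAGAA
RBL2: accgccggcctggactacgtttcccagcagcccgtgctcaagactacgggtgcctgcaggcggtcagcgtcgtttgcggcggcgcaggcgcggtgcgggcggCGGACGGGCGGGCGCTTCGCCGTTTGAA

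In the direction of transcription the RBL1 peak began at base 24 of the gene and the RBL2 peak at base 3, so neither reached upstream of the annotated start. Both stretches are rich in G and C (56.2% and 72.3%). The first 50 bases of neither gene hold a run of 5 T, the DNA form of a U run, which 3.72% of the 35116 RefSeq promoter windows hold there. Those bases take in only 27 bases of the RBL1 peak, which is 199 bp wide, and 48 of the RBL2 peak of 322 bp. Most of each start peak was thus not searched, and whether it holds a U run is not known. Both strands of the 300-base windows were also searched for the words TTTGGCGC and TTTCGCGC, forms of the site that E2F factors bind on DNA. The RBL1 window holds both words on the coding strand, 16 to 9 and 26 to 19 bases before the start, next to each other and without overlap. The RBL2 window holds neither, and 1.15% of all windows hold at least one. A match of letters is a description and shows no binding. The RefSeq window matched to RB1 belongs to a start near the 3' end of the span, at 48476200 to 48476499, and no peak overlaps it.

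RBL2 peaks were also the widest on the median. Widths had a median of 180 bp (62 to 507) in RBL2, 132 bp (58 to 199) in RBL1 and 109 bp (50 to 268) in RB1, against 124 bp over peaks in protein-coding genes (quartiles 80 and 195). A width of 200 bp or more was found in 6 RBL2 peaks, 2 RB1 peaks and no RBL1 peak. Of these 8 peaks, the start peaks of RB1 and RBL2 made up 2. The limit of 200 bp lies just above the upper quartile of 195 bp over peaks in protein-coding genes. For the 48 pocket protein peaks together the median was 132 bp and the quartiles were 89 and 187 bp. As a family they thus had a slightly higher median and a slightly lower upper quartile.

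The genes most like each pocket protein gene were sought over 4 measures of this library, span, number of peaks, median fold and median width, scaled to unit variance, among the other 2304 protein-coding genes with 3 or more peaks. Nearest to RB1 were DENND5B (distance 0.280), MTUS1 (0.282) and ZMYM4 (0.287), each with 19 peaks. Nearest to RBL1 were SRPK1 (0.201), WAPL (0.282) and PAK2 (0.307), with 14, 13 and 15 peaks. Nearest to RBL2 were TMTC3 (0.263), RC3H2 (0.443) and SUZ12 (0.469), with 16, 19 and 14 peaks. None of the pocket protein genes was among the 3 nearest to another. Seen from RB1, RBL1 had rank 322 and RBL2 1514 of 2304. Seen from RBL1, RB1 had rank 425 and RBL2 895, and seen from RBL2, RBL1 had rank 172 and RB1 872.

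The partners and regulators of the pocket proteins, a list of 50 genes, carried peaks in 20 cases (40.0%), against 18.4% of all protein-coding genes. Genes of the list with a peak had a median span of 47.8 kb and those without one 16.5 kb, and the part of length and expression in this count was not tested. All 3 pocket protein genes had 10 or more peaks, as did 5 of these 50 genes and 3.90% of all protein-coding genes. The 5 were E2F2, LIN54, DYRK1A, KDM5A and MDM2.

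Among the E2F and DP factors 5 of 11 carried a peak. E2F3, an activating factor, had 7 peaks and a best fold of 10.3, and E2F2 had 10 peaks and a best fold of 8.53. The repressor E2F7 had 8 peaks up to 6.73, while the dimer partners TFDP1 and TFDP2 had 2 each, up to 4.40 and 6.51. E2F1, E2F4, E2F5, E2F6, E2F8 and TFDP3 had none, so the E2F4 and E2F5 partners of RBL1 and RBL2 had no peak in this list. As 18.4% of all protein-coding genes had a peak, this does not set E2F4 or E2F5 apart. Density in E2F2, 38.4 per 100 kb (18.4 to 70.7), was above that of RBL2, with overlapping intervals. The 2 peaks of TFDP1 had a median of 25 reads, more than the median of RBL2 at a lower fold.

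The MuvB core, which joins RBL1 or RBL2 in the DREAM complex, and its activators had a peak in 3 of 7 genes. LIN54, the DNA-binding subunit, held 12 peaks up to a fold of 7.55, and LIN9 and the histone chaperone RBBP4 held 2 each, up to 5.76 and 7.73. LIN37, LIN52, MYBL2 and FOXM1 had none. Of the cyclins and kinases that phosphorylate pocket proteins or, with DYRK1A, LIN52, 5 of 11 had a peak. CDK6 had 7 peaks up to a fold of 17.4, DYRK1A 13 up to 13.1, CDK2 1 at 6.93 and CCNA2 1 at 4.26. CCND1, the cyclin partner of CDK4 and CDK6, had 2 peaks whose best fold was 4.004 although their median number of IP reads was 42.5. CCND2, CCND3, CCNE1, CCNE2, CDK4 and CDK1 had none.

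None of the 7 CDK inhibitor genes, which hold those kinases back, had a peak (CDKN1A, CDKN1B, CDKN1C, CDKN2A, CDKN2B, CDKN2C and CDKN2D). Among all protein-coding genes 18.4% had one, so a count of none in so few genes does not set them apart. Their median span was 6.41 kb, and the part of length, expression or gene copy number in this count was not tested. Of the chromatin partners of RB1, KDM5A had 21 peaks up to a fold of 10.1 and ARID4A 2 up to 5.27, while HDAC1, HDAC2, SUV39H1, SIN3B and RBBP7 had none. Of the ubiquitin ligase subunits and phosphatases of the pathway 5 of 7 had a peak. PPP1CB, a catalytic subunit of the phosphatase that acts on RB1, reached 23.7 over 9 peaks, MDM2 21.3 over 13, SKP2 11.7 over 5, CCNF 6.45 over 4 and PPP1CC 3.92 over 5. PPP1CA and AMBRA1, whose product directs D-type cyclins to degradation, had none.

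**Figure D5:**
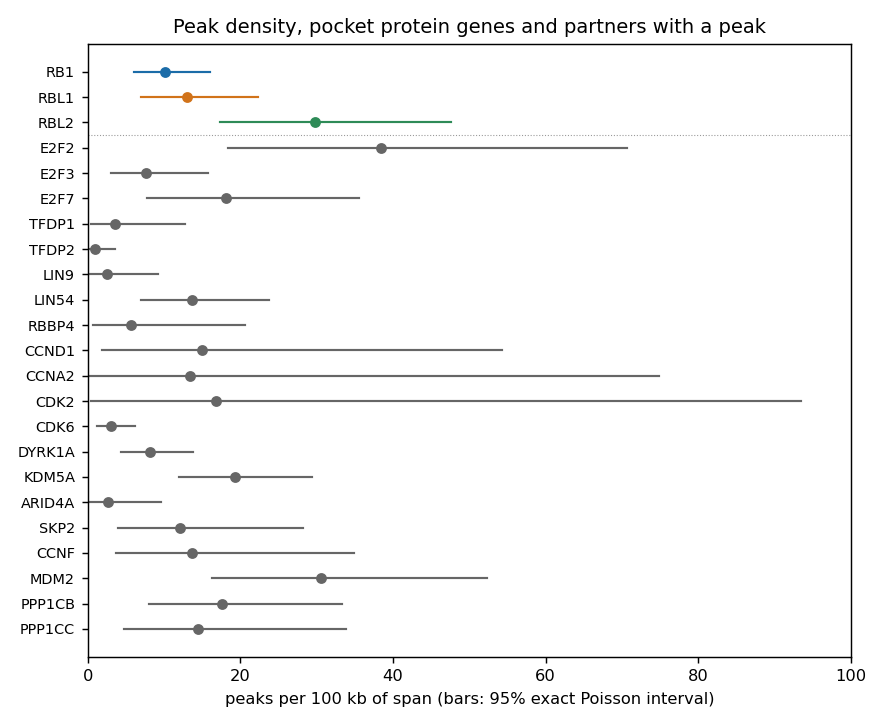
Peaks per 100 kb of gene span (points) with 95% exact Poisson intervals (bars) for RB1, RBL1 and RBL2 and, under the dotted line, the 20 listed partner and regulator genes with a peak. RBL2, at 29.7, lies near MDM2 and E2F2, and RB1 and RBL1 lie among the others.

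The label of the cells could not be checked with the peaks. Of 8 epithelial markers CDH1 alone carried peaks, 10 of them, and EPCAM, KRT8, KRT18, KRT19, NKX2-1, SFTPB and SFTPC had none, as had the 5 blood and immune markers and the 4 fibroblast and endothelial markers. With 18.4% of all protein-coding genes carrying a peak, these counts do not set the markers of any cell type apart. A gene without a peak is not shown to be silent.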

How the data were processed

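RIP-seq peaks of 1 IP library were analysed. Per the submitters' processing notes, hg38 was the build and HISAT2, MACS2 and bedtools were among the tools, without version or role. In the deposited narrowPeak list the authors give each peak a fold ratio over the caller's background, the −log10 of p and of q (highest q 0.00998) and a score, equal in every row to 10 times that −log10 of q with its decimals dropped. Reads at the summit were solved from fold and p, with a pseudocount of 1, and tested on simulated data. The summit set the gene, and a summit in several spans counted for each. Spans, strands and start sequences came from RefSeq (GRCh38.p14). Coordinates are 1-based. The planned test of exons and introns was not run. Results were recomputed at a stricter q (0.001), at a minimum fold of 4, under other overlap rules and with peaks merged within 200 bp. The named genes were the 3 members with their peaks, overlapping genes, the nearest genes and the list members. Members and lists were chosen with earlier results of these data known. Software was scipy 1.17.1, pandas 2.3.3 and numpy 2.4.6 under Python 3.11.15, and figures used matplotlib 3.10.9.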

Additional observations from a re-analysis of the deposited data

How the results depend on the processing

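Of 128 values recomputed under the alternatives, 127 stayed within 1.5 times of the count or stretch, or within the 95% interval of the median or share. The exception was the number of RBL2 summits near an end of the span, which was 2 within 5 kb and 1 within 2 kb. The 127 include many values that had no room to move, so their number does not measure robustness. No summit of RB1, RBL1 or RBL2 lay in another protein-coding gene, so leaving such summits out changed nothing. Their peak counts were also the same under the other overlap rules and with peaks merged within 200 bp. A limit of 8 reads removed no peak of RBL1 or RBL2, whose lowest reads were 9 and 11. With q of 0.001 or less RB1 kept 13 of its 18 peaks, RBL1 12 of 13 and RBL2 15 of 17, and the median fold of RB1 became 6.73, equal to that of RBL1. The stretch of 71.7 kb in RB1 was found also with q of 0.001 or less, with a fold of 4 or more and with 8 or more reads at the summit, the last chosen after seeing the data. No paired analysis was possible because each group has 1 library and no file of the input library was analysed here. Reads at the summit limit what a single peak shows, as 15 reads carry an interval of 8.40 to 24.7.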
